A study of Mus musculus with 6 samples.

Results

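The 10 genes described here encode the channels and sensors through which Ca2+ leaves the endoplasmic reticulum (ER) and through which the emptied store calls for Ca2+ from outside the cell. They are the IP3 receptors Itpr1, Itpr2 and Itpr3, the ryanodine receptors Ryr1 and Ryr3, the ER sensors Stim1 and Stim2, and the plasma membrane channels Orai1, Orai2 and Orai3. They were taken by symbol from the 19078 genes of the deposited table, and all 10 were found. The series holds RNAseq of immortalized mouse fibroblasts (MF), made from poly(A) RNA in 3 libraries of Ms4a15 OE cells and 3 of control cells. In Ms4a15 OE cells a CRISPR activation system, brought by a guide RNA to the start of the gene, turns up the endogenous Ms4a15 gene, and the cells were selected as a pool and not cloned. The labels give the control genotype as wild type, whereas the methods of the study describe control cells with an empty vector. Per the methods, the line consists of embryonic fibroblasts with conditional Gpx4 alleles and the inducible recombinase Cre-ERt2, and the labels name no agent for either group.

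The guide that the study lists for Ms4a15 in mouse cells is shown because it directs the activation. It is printed 5′ to 3′ with the adjacent bases on the genome, the PAM that Cas9 needs, in capitals.

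Ms4a15 guide: aaagactgaagcaagggactGGG

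It matched the minus strand at chr19:10993361-10993380 of GRCm38, from 130 to 111 bases upstream of the annotated start of Ms4a15, and no other promoter of the RefSeq set held it. None of the 10 channel genes lies on chromosome 19.

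IP3 receptors are tetrameric channels of the ER membrane that open when a receptor at the cell surface activates phospholipase C and IP3 is made. Ryanodine receptors are the other large release channels of the ER and are best known from muscle, where they serve contraction. When the store empties, STIM proteins sense the loss of luminal Ca2+, cluster at contacts with the plasma membrane and open Orai channels there, a process known as store-operated Ca2+ entry. Fibroblasts use this chain in response to agonists such as bradykinin.

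The only measurement used was the mean of each gene over all 6 libraries, as counts that the authors had divided by size factors. Such a mean cannot separate Ms4a15 OE from control, so the effect of Ms4a15 on these genes was not analysed here, and no SD between replicates or p-value is given. Ms4a15 itself had a mean of 638 normalized counts over both groups, which does not check the labels of single libraries. The size factors of the 6 libraries lay between 0.887 and 1.14, a ratio of 1.28, and the file does not tie them to samples. To compare genes, each mean was divided by the length of the union of the gene's annotated exons in kilobases (kb), and this value is the level given below. In bulk RNA, fewer cells with a transcript and less of it per cell cannot be told apart. A gene was taken as detected when its mean was at least 10 normalized counts. By this rule 12914 of the 19078 genes of the table were detected, a share to set beside each count of detected genes below. Of these detected genes 11914 had an annotated length, and their median level was 270 per kb with quartiles of 73.2 and 730 per kb.

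Of the 10 channel genes, 8 were detected, beside 12914 of 19078 over the whole table, and both ryanodine receptors were not. The 8 detected genes had a median level of 215 per kb, beside 270 per kb over all detected genes, and 3 of the 8 lay above that gene median. By the longest transcript 3 lay above the median on that scale, and by coding sequence only 1 did, Orai2. The levels of the 8 genes spanned 8.13-fold, from Orai1 at 81.9 per kb to Itpr3 at 666 per kb, and by coding sequence 14.5-fold, from Itpr2 to Orai2. Between Orai1 and the higher of the ryanodine receptors, Ryr1, the ratio of levels was 408. The gap between the detected genes and the ryanodine receptors was thus wider than the whole range of the detected genes.

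**Figure D1:**
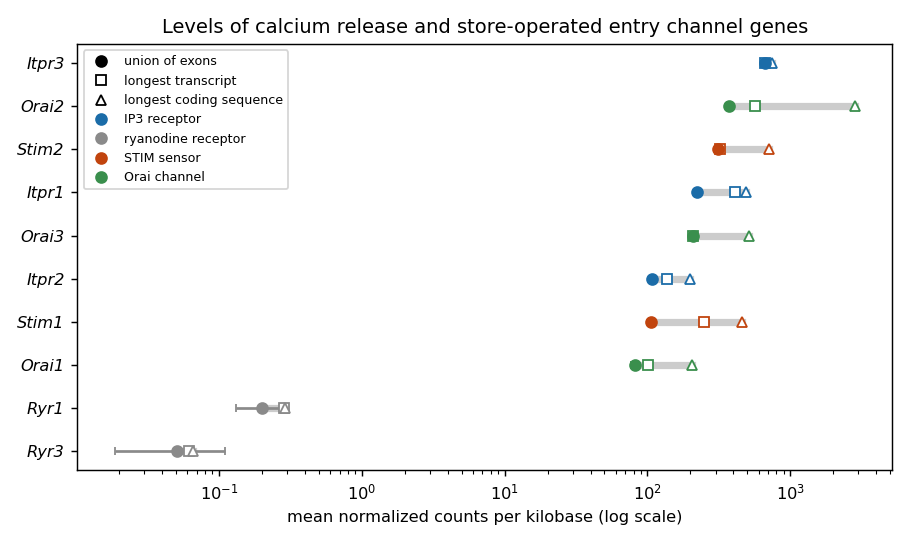
Level of each channel gene as mean normalized counts per kb on a log axis, with circles for the union of exons, squares for the longest transcript and triangles for the longest coding sequence, and thin bars for the 95% counting interval of the first. The 8 detected genes lie between 81.9 and 666 per kb of exon, and Ryr1 and Ryr3 lie at 0.201 and 0.0505.

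**Figure D2:**
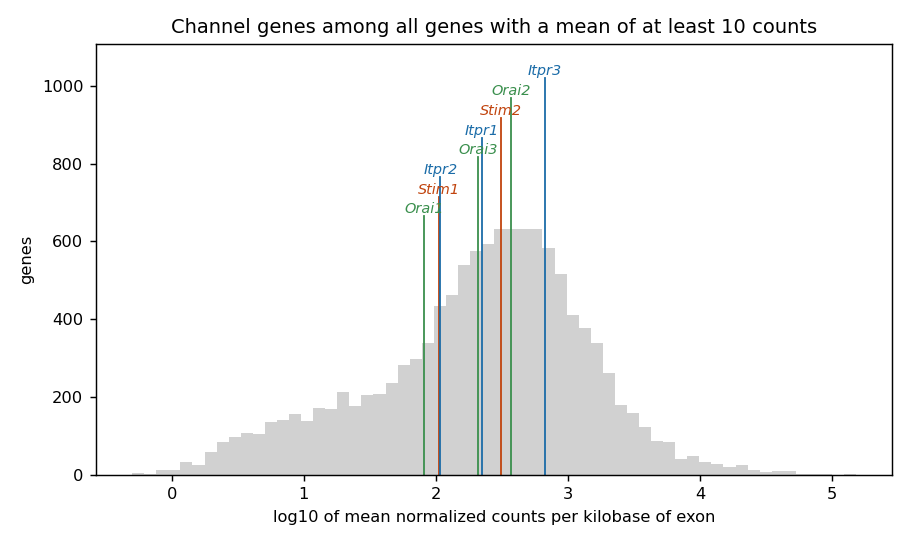
Histogram of the level of the 11914 detected genes with a length, as log10 of mean normalized counts per kb of exon, with the 8 detected channel genes as vertical lines whose heights serve only to separate the labels. Itpr3, Orai2 and Stim2 lie above the median of 270 per kb and the other 5 lie below it.

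The IP3 receptors carried most of the release channel transcripts. Itpr3, on chromosome 17 at 27057304 to 27122223 of GRCm38, had the highest mean of the 10 genes, 6008 normalized counts. Its level of 666 per kb was above that of 72.9% of detected genes. Itpr1, the form best known from neurons, had a mean of 4055 normalized counts and a level of 221 per kb, above 45.3% of detected genes. Itpr2, which is abundant in heart and liver, had a mean of 1602 normalized counts and a level of 108 per kb, above 30.7% of detected genes. All 3 forms were therefore present, and none was near the detection minimum.

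Within the family, Itpr3 made up 66.9% of the summed level, Itpr1 22.2% and Itpr2 10.9%. These shares are of a mean over both groups and may hold for neither group alone. The study reports a marked decrease of IP3R1, the protein of Itpr1, in Ms4a15 OE cells, and the transcript was not compared between groups here. The level of Itpr3 was 3.01 times that of Itpr1, and that of Itpr1 was 2.04 times that of Itpr2. The order Itpr3, Itpr1, Itpr2 was the same on all 4 scales examined, which were the union of exons, the longest transcript, the longest coding sequence and no division by length. The size of the lead was not. Itpr1 has 13 annotated transcripts and 18319 exonic bases against 9019 in Itpr3, and by coding sequence the ratio of Itpr3 to Itpr1 was 1.53. The share of Itpr3 accordingly ran from 51.5% with no division by length to 66.9% by the union of exons.

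The ryanodine receptors were close to the limit of the sequencing. Ryr1, the skeletal muscle form, had a mean of 4.39 normalized counts and a level of 0.201 per kb. Ryr3, a form expressed at low levels in many tissues, had a mean of 0.959 normalized counts and a level of 0.0505 per kb. Means this low can be resolved into whole reads, because 1 read in 1 library raises the mean by a step that is particular to that library, and 1267 genes of the table consist of exactly 1 such step. A read here means 1 count. The methods of the study describe paired-end runs, so 1 count may stand for a pair of reads. The reads are given by library in the order of the size factors, since the group of each library is not known from these values.

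Ryr1 had 26 reads in all (95% exact Poisson interval 17.0 to 38.1). They fell as 8 in the library with the size factor 0.887, 5 in that with 0.938, 1 in that with 0.946, 3 in that with 1.02, 3 in that with 1.11 and 6 in that with 1.14. Every library thus held Ryr1 reads, and after division by the size factors the libraries ranged from 1.06 to 9.02 reads. Ryr3 had 6 reads in all (2.20 to 13.1), with 1, 0, 1, 0, 2 and 2 reads in the libraries in the same order. Reads of Ryr3 were thus present in 4 of the 6 libraries, and none of these libraries held more than 2. Ryr2, the cardiac form and the remaining member of the family, had 6 reads as well, with 1, 0, 3, 1, 1 and 0 in the same order. These intervals cover counting error only. The level of Itpr3 was 3314 times that of Ryr1, and the summed level of the IP3 receptors was 996 per kb against 0.252 per kb for Ryr1 and Ryr3.

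Parts of the ryanodine receptor exons are shared with other annotated genes. On the opposite strand, exons of the antisense gene Gm26604 cover 3.96% of the exonic bases of Ryr1, and exons of Aven, a protein-coding gene, cover 4.83% of those of Ryr3. The libraries were strand-specific per the labels, but whether counting used the strand is not given in the sources used here. Aven had a mean of 1453 normalized counts. Whether reads of these neighbours add to the counts of Ryr1 or Ryr3 was not tested. Among the detected channel genes such overlap covered at most 2.58% of exonic bases, between Itpr3 and Itpr3os.

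**Figure D3:**
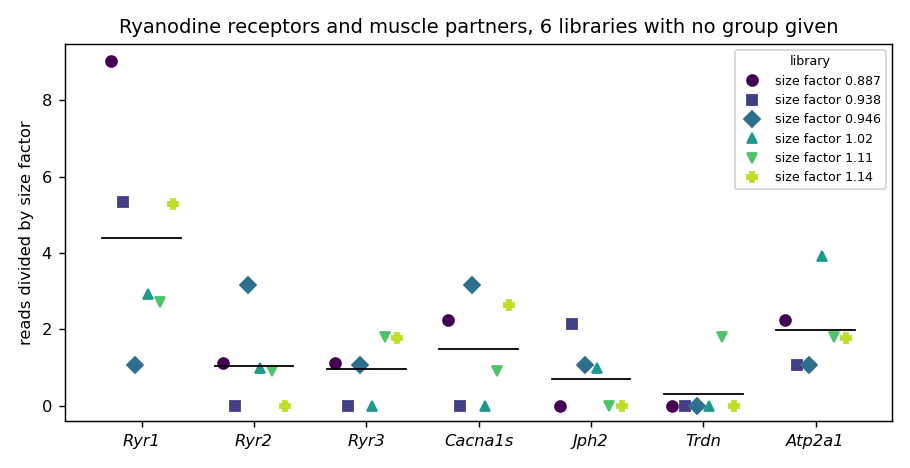
Reads divided by the size factor (vertical axis) in each of 6 libraries for Ryr1, Ryr2, Ryr3 and 4 muscle calcium genes, with one symbol per library and a horizontal line at the mean. Ryr1 has reads in all 6 libraries, between 1.06 and 9.02, whereas Ryr2 and Ryr3 have reads in 4 each.

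Both ER sensors were detected. Stim2, which responds to small losses of luminal Ca2+ and sets its resting level, had a mean of 1601 normalized counts and a level of 312 per kb, above 53.6% of detected genes. Stim1, which needs a larger loss and drives the entry after agonists, had a mean of 1094 normalized counts and a level of 105 per kb, above 30.2% of detected genes. Stim2 therefore made up 74.7% of the summed level of the family and Stim1 25.3%. The level of Stim2 was 2.96 times that of Stim1 by the union of exons, 1.29 times by the longest transcript, 1.54 times by coding sequence and 1.46 times with no division by length. Stim2 was the higher of the pair on every scale, and the largest ratio came with the length on which the genes differ most. The union of exons is 10371 bases long in Stim1 and 5133 in Stim2, whereas their coding sequences are 2379 and 2262 bases.

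All 3 Orai channels were detected, in the order Orai2, Orai3, Orai1. Orai2 had a mean of 2267 normalized counts and a level of 373 per kb, above 57.9% of detected genes. Orai3, the form found in mammals but not in other vertebrates, had a mean of 445 normalized counts and a level of 208 per kb, above 43.8% of detected genes. Orai1, the pore subunit of the classical store-operated current, had a mean of 188 normalized counts and a level of 81.9 per kb, above 26.4% of detected genes. By the union of exons Orai1 was thus the lowest of the 8 detected genes, while by coding sequence Itpr2, at 198 per kb, was below Orai1, at 206 per kb. Orai1 had between 1000.2 and 1282 reads over the 6 libraries.

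Orai2 made up 56.3% of the summed level of the family, Orai3 31.4% and Orai1 12.4%. The level of Orai2 was 1.79 times that of Orai3 and 4.55 times that of Orai1, and the order held on all 4 scales. The ratio of Orai2 to Orai1 rose to 13.9 by coding sequence, as the coding sequence of Orai2 is 792 bases long and its union of exons 6077 bases. Its share of the family ran from 56.3% to 80.0% with the length chosen. The study reports that Orai expression hardly changed in Ms4a15 OE cells, and Orai transcripts were not compared between groups here.

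**Figure D4:**
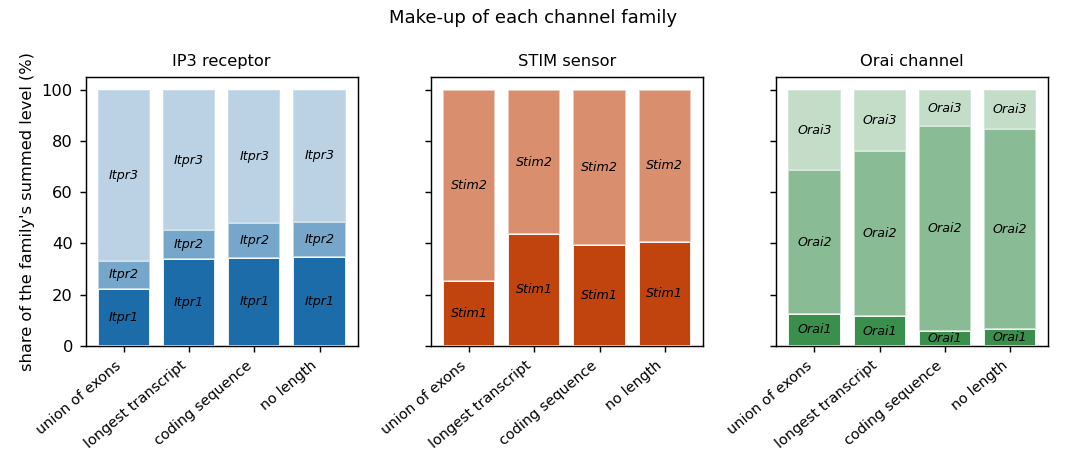
Share of each member in the summed level of its family, in percent, for the IP3 receptors, STIM sensors and Orai channels, with a stacked bar for each of 4 ways to treat length. Itpr3, Stim2 and Orai2 hold the largest share of their family in every bar, at 51.5% to 66.9%, 56.4% to 74.7% and 56.3% to 80.0%.

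Across families, the order by level was Itpr3, Orai2, Stim2, Itpr1, Orai3, Itpr2, Stim1, Orai1, Ryr1 and Ryr3. Counting error of the 8 detected genes was between 0.525% and 2.97% of the level, while the spread between libraries is unknown, so whether neighbours in this order differ beyond replicate error cannot be said. Itpr1 and Orai3, at a ratio of 1.06, and Itpr2 and Stim1, at 1.03, were the closest neighbours. Their order turned with the length used, as did that of Itpr3 with Orai2 and of Stim2 with Itpr1. Pairs further apart in the order turned as well, among them Itpr2 and Orai1 by coding sequence. By coding sequence Orai2 was first, and the ratio of Itpr3 to Orai2 was 0.262. The summed level was 996 per kb for IP3 receptors, 663 per kb for Orai channels and 417 per kb for STIM sensors. By coding sequence the ratio of IP3 receptors to Orai channels was 0.402, so the order of these families rests on the length chosen.

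The sequence before each start site was examined for what the genes share. RefSeq promoters of GRCm38.p6, from 250 bases before to 50 after the start, were given for 8 of the 10 members, without Itpr1 and Ryr3. Among these, the CpG count per promoter was 39 in Stim2, 38 in Stim1, 36 in Orai1, 30 in Itpr3, 26 in Itpr2, 24 in Orai2, 11 in Orai3 and 9 in Ryr1. The median of all 32851 promoters was 7, with quartiles of 3 and 20. The detected members with a promoter given, other than Orai3, were thus above the upper quartile. Orai3 was detected with a count close to that of Ryr1, and the count of Itpr1 is not known. The letters TATAAA, searched on both strands, occurred in 0 of 8 members and in 13.6% of all promoters. The letters GGGCGG, searched the same way, occurred in 8 of 8 members, Ryr1 included, and in 35.7% of all promoters. GGGCGG itself holds a CpG, and the GC content of the members was 56.7% to 78.7% beside a median of 52.7%. Ryr2, which is no member, had 18 CpG, 2 matches to GGGCGG and none to TATAAA. Promoters of detected genes or of like CpG count were not examined apart, so the matches are not shown to be particular to the members. These matches describe letters and not bound sites, and nothing measured here bears on binding.

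A stretch of 100 bases is shown, ending just before whichever of the RefSeq and GENCODE gene starts lies further upstream. Among the members with a promoter given, it is shown for those with the highest and lowest CpG counts, Stim2 and Ryr1. It is also shown for Itpr3, the gene with the highest level, and for Orai3. Of the detected genes with a promoter given, Orai3 had the fewest CpG. The stretches are printed 5′ to 3′ on the strand of the gene, with each CpG in capitals.

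Itpr3: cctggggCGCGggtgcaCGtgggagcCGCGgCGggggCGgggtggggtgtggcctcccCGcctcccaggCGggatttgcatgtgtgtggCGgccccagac

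Stim2: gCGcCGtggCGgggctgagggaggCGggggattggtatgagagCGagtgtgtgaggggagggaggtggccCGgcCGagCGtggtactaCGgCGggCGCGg

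Orai3: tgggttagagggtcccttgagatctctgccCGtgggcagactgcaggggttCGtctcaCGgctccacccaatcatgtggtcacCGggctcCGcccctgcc

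Ryr1: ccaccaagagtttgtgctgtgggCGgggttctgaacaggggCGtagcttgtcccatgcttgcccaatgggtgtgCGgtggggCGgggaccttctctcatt

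The stretch of Itpr3 is chr17:27057204-27057303 on the plus strand and holds 10 CpG. That of Stim2 is chr5:53998399-53998498 on the plus strand and holds 12 CpG. That of Orai3 is chr7:127769715-127769814 on the plus strand and holds 5 CpG, and that of Ryr1 is chr7:29125180-29125279 on the minus strand and holds 4 CpG. None of these stretches overlaps an annotated exon. The contrast in CpG is therefore visible between Stim2 and either Orai3 or Ryr1, and not between Orai3 and Ryr1.

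Transcripts of each step upstream of the IP3 receptors were detected. Of 6 genes for bradykinin receptors and G proteins of the Gq class, 4 were detected, near the share over the whole table, 12914 of 19078. The G protein subunits Gna11 and Gnaq had levels of 804 and 405 per kb, and the bradykinin receptors Bdkrb1 and Bdkrb2 had 108 and 18.6 per kb. Gna14 and Gna15, which are restricted to some tissues, had means of 1.04 and 2.43 normalized counts and were not detected. Of 13 phospholipase C genes, which make IP3, 11 were in the table and 8 were detected, also near the share over the whole table. The highest were Plcb3 at 689, Plcg1 at 484, Plcd3 at 358 and Plcd1 at 185 per kb. Plcb enzymes are activated by G proteins and Plcg enzymes by tyrosine kinases, so a gene of each kind was among the highest. Of 13 genes that make IP3 precursors or remove IP3, 11 were detected, led by Cdipt at 1017, Impa1 at 836, Pip5k1a at 804 and Pip5k1c at 417 per kb. By coding sequence Impa1, at 5467 per kb, was above Cdipt, at 3886, and Inpp5a, at 1179, was above Pip5k1c, at 1159.

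Of 20 regulators of the IP3 receptors, 18 were detected, beside 12914 of 19078 genes over the whole table. The median over the list was 607 per kb. The highest were Hspa9, a mitochondrial chaperone that links the receptor to Vdac1, at 12515 per kb, and Vdac1, the channel of the outer mitochondrial membrane, at 5838 per kb. Mcl1, an anti-apoptotic protein of the Bcl2 family, had 2253 per kb, and Ahcyl1, also known as IRBIT, had 1993 per kb. The Bcl2 relatives and Ahcyl1 bind the receptor itself. The genes not detected were Mrvi1, the partner of the receptor in smooth muscle, with a mean of 8.05 normalized counts, and Tespa1, a lymphocyte protein listed in the table as 5830405N20Rik, with 1 read in all.

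Of 15 genes for partners of the ryanodine receptors, 13 were in the table and 9 were detected. This was near the share over the whole table, 12914 of 19078 genes. The highest were S100a1 at 2019, Fkbp1a at 969, Sri at 611 and Asph at 315 per kb. Fkbp1a and Asph also have roles outside muscle. Partners known from muscle were found on both sides of the minimum. Jph1 had a mean of 324, Cacna1c of 318, Fkbp1b of 49.5 and Casq2 of 24.3 normalized counts, and all 4, chosen after their values were seen, were detected. Not detected were Cacna1s, Jph2, Trdn and Casq1. Cacna1s, the skeletal muscle Ca2+ channel that opens Ryr1, had 9 reads over the 6 libraries, Jph2, which joins the membranes in heart, had 4, and Trdn, the ER anchor of the receptor, had 2. Casq1, the Ca2+ buffer of skeletal muscle, had a mean of 6.24 normalized counts.

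Of 18 regulators of store-operated entry, 15 were in the table and 13 were detected, beside 12914 of 19078 genes over the whole table. The median of the list was 315 per kb. Among the highest were Calm2 at 16274 and Calm3 at 3270 per kb, which encode the Ca2+ sensor calmodulin, and Mapre1, the microtubule end protein that carries Stim1, at 1647 per kb. Saraf, listed as Tmem66, slows the entry by acting on Stim1 and had 1196 per kb, and Trpc1, a further entry channel, had 24.5 per kb. These 2 genes were chosen after their values were seen. Efcab4a, with a mean of 6.45 normalized counts, was not detected.

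The main ER pump and most proteins of the ER lumen had higher levels than any of the channels. Of 5 listed genes of the ER Ca2+ pumps, 3 were in the table and 2 were detected, beside 12914 of 19078 over the table. Pln and Sln were not in the table. Atp2a2 (SERCA2), which refills the store, had a level of 4019 per kb and Atp2a3 had 51.8 per kb. Atp2a1, the pump of fast skeletal muscle, had 12 reads in all. All 16 listed Ca2+-binding proteins of the lumen were detected, with a median of 3923 per kb. The highest were Calr at 18881, Pdia3 at 17807, Hspa5 at 17173 and Hsp90b1 at 15984 per kb. All 8 listed genes for Ca2+ leak from the ER were detected, led by Sec61a1 and Tmbim6, both at 2072 per kb, then Sec61g at 1754 and Sec61b at 1746 per kb. Over the 9 lists, 104 of 113 genes were in the table and 88 were detected, beside 12914 of 19078 genes over the table. These counts describe presence in the cells, and no member or list was tested for a difference between groups.

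**Figure D5:**
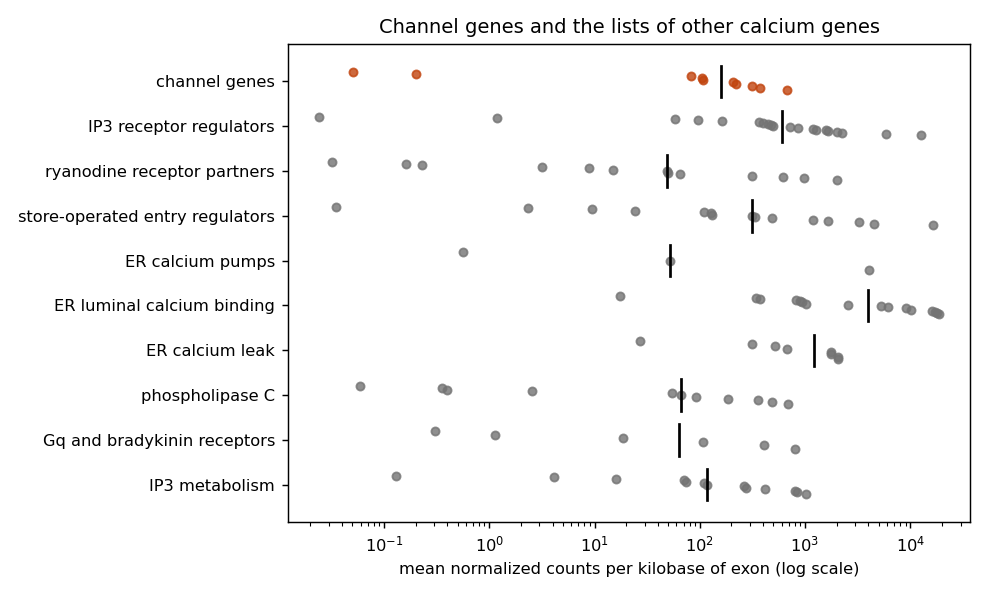
Level per kb of exon on a log axis for the 10 channel genes and for each gene of 9 lists of calcium genes, with a vertical bar at the median of each row. The proteins of the ER lumen have the highest median, 3923 per kb, and the channel genes form a group of 8 between 81.9 and 666 per kb with the ryanodine receptors far below.

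The labelled cell type was checked against markers. Of 10 fibroblast markers 9 were detected, beside 12914 of 19078 genes over the whole table. Vim had 24275, Col1a2 10877, Col1a1 10206 and Fn1 9777 per kb. Col3a1 had 418, Pdgfrb 393 and Thy1 365 per kb, and Pdgfra had 27.7 per kb, above only 15.6% of detected genes. Dcn, with a mean of 12.1 normalized counts, was just over the minimum, and Lum, with 4 reads in all, was not detected, so these fibroblast proteoglycans were almost absent. Of 9 skeletal muscle markers, 4 were in the table, none was detected and their levels were at most 1.20 per kb. Of the cardiac, epithelial, endothelial, leukocyte and neuron lists, 1 of 4, 1 of 5, 2 of 4, 2 of 5 and 2 of 4 genes were detected. The highest of these were Tubb3 at 1319 per kb, Tnnt2 at 747 per kb, Syn1 at 157 per kb and Cd68 at 131 per kb. The part of other cell types in the levels of the channel genes was not tested.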

How the data were processed

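RNAseq libraries of immortalized mouse fibroblasts, 3 Ms4a15 OE and 3 control, were compared by the authors in 1 deposited table. Per the methods of the study, the authors aligned reads with STAR to mm10, counted them on UCSC knownGene genes with HTSeq-count and used DESeq2. The labels also name TopHat, Cufflinks and Cuffdiff. The authors deposited, as a signal per gene, its count after division by size factors and averaging across the 6 libraries. Its further columns hold the authors' fold changes, standard errors, p-values and a direction, and they were not used. Tests of Ms4a15 OE against control planned on counts of single libraries were therefore not run.

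The members and gene lists were chosen with earlier results of these data known. All members are named, and for each pathway list the 4 genes with the highest level and defining genes not detected, except that some genes of the store-operated entry list are not reported here. Of the marker lists, counts and examples are given. Lengths and positions came from the GENCODE annotation of GRCm38, the same assembly as mm10, in which 16547 of 19078 genes were found, 1871 through another symbol. Percentiles are the share of detected genes (means of 10 or more) that had a lower level. Genes not found by symbol were not analysed here.

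Size factors came from the 6 lowest distinct means, each 1 read in 1 library, shared by 1267 genes. Means up to 5 were resolved into whole reads where a single set of reads gave the mean within 5e-10 per read. This tolerance, set by the printed decimals, replaced a wider one that had left 2 sets of reads for Ryr1. In simulated data 199 of 200 genes gave a single set. The reads of single libraries, the promoter description and the genes plotted by library were chosen after the data were seen. Intervals are 95% exact Poisson intervals and cover counting error only, and reads of detected genes are bounded by the lowest and highest size factor. No source says that the 3 samples of a group were separate cultures. Alternatives were the longest transcript, the longest coding sequence or no length, and minimum means of 1, 100 or none. Python 3.11.15 with numpy 2.4.6, pandas 2.3.3, scipy 1.17.1 and matplotlib 3.10.9 was used.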

Additional observations from a re-analysis of the deposited data

How the results depend on the processing

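No paired analysis was possible because the values used are means over all 6 libraries. The planned edgeR and DESeq2 fits, with and without a filter, with a replicate block or leaving out replicates, were not run for the same reason. The order within each family was the same by the longest transcript, by coding sequence and with no division by length, while the shares moved. In that sequence, the share was 54.9%, 52.1% and 51.5% for Itpr3, 33.8%, 34.2% and 34.8% for Itpr1, and 11.3%, 13.7% and 13.7% for Itpr2. It was 56.4%, 60.6% and 59.4% for Stim2 and 43.6%, 39.4% and 40.6% for Stim1. It was 64.8%, 80.0% and 78.2% for Orai2, 23.7%, 14.3% and 15.3% for Orai3, and 11.4%, 5.76% and 6.48% for Orai1. The shares of Ryr1 and Ryr3 moved by less than their counting error. Percentiles ran from 46.3 to 80.5 for Itpr3, 50.6 to 77.9 for Orai2, 44.9 to 66.6 for Stim2, 35.9 to 60.6 for Itpr1, 34.1 to 59.5 for Orai3, 18.9 to 50.1 for Itpr2, 18.3 to 49.7 for Stim1 and 14.0 to 47.0 for Orai1 over the alternatives of length and minimum mean. With a minimum mean of 1, detected markers numbered 3 for skeletal muscle, 2 cardiac, 3 epithelial, 4 endothelial and 4 leukocyte, and with a minimum of 100 they numbered 0 epithelial, 1 endothelial and 1 leukocyte. The counts of the 9 pathway lists stayed within 1.5 times of those at a minimum of 10 under both. The genes named as highest in each pathway list are ranked by the union of exons, and some orders turned by coding sequence. On that scale Fkbp1a (7770 per kb) was above S100a1 (4969), and Sec61g (14407) was above Sec61a1 (9766). Ncs1 (9607) was above Ahcyl1 (8387) and Mcl1 (7756). In the list of ER lumen proteins, Calu (44945) was above Calr (43572). Levels compare genes only as far as the annotated lengths match the transcripts of these cells, which was not tested. At 26 reads or fewer, differences between libraries in Ryr1, Ryr2 and Ryr3 rest on single reads.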
